A study of Homo sapiens with 4 samples.

Results

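Aminoacyl-tRNA synthetases join each amino acid to its tRNA and so supply the substrates of translation. The cytosol and the mitochondrion have separate enzymes for most amino acids. In the cytosol several of them are held in a multi-synthetase complex by 3 scaffold proteins, AIMP1, AIMP2 and EEF1E1. Many of the cytosolic enzymes are known targets of ATF4, the bZIP factor of the amino acid response, which binds C/EBP-ATF response elements with partners such as CEBPG. Among the 16504 gene symbols deposited for these libraries, 40 carried the name of a synthetase, with a single letter for the amino acid before ARS, or the name of EPRS1, FARSA, FARSB or a scaffold protein. These were 18 cytosolic enzymes, 3 scaffold proteins, 17 mitochondrial enzymes and 2 enzymes, KARS1 and GARS1, that serve both compartments. Together they make up the charging step that all protein synthesis draws on.

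RNA-seq was performed on 2 control libraries (NC, with CEBPG present) and 2 CEBPG knockdown libraries (CEBPG3), all labelled NB4, a line derived from acute promyelocytic leukemia. In the study the knockdown was made with lentiviral short hairpin RNAs in a puromycin-resistance vector, and infected cells were selected with puromycin. The cells it compared with the knockdown in RNA-seq are described there as shRNA (short hairpin RNA) controls. The number in the knockdown label was read as hairpin 3 of the study, so a single hairpin is the only source of the knockdown here, and that reading is an assumption. Nothing states that the 2 libraries of a group came from separate cultures, so the p-values measure only the spread between these libraries. CEBPG itself measured 17.1 and 18.1 FPKM in the controls against 6.91 and 7.96 FPKM after knockdown, a log2 fold change of -1.14 (SE 0.082, limma adjusted p = 0.000836). FPKM counts fragments relative to transcript length and to all mapped reads. FPKM summed to between 345340 and 366139 per library, and the read depth was unknown.

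The label was checked against marker genes. Of 12 myeloid markers, 6 were under 1 FPKM in every library, among them the promyelocytic granule genes AZU1 (0.370 to 0.570 FPKM) and PRTN3 (0.0897 to 0.188 FPKM). Others of the list were expressed, namely CD68 (18.5 to 47.3 FPKM), LYZ (15.0 to 20.1 FPKM), SPI1 (15.2 to 17.2 FPKM), CD33 (4.31 to 9.77 FPKM) and FUT4 (6.74 to 7.86 FPKM). Of 13 erythroid markers, 12 reached 10 FPKM in every library, with the fetal and embryonic globins HBG2 (2890 to 3766 FPKM), HBG1 (1485 to 1998 FPKM) and HBE1 (994 to 1153 FPKM) among them, of which HBG1 and HBG2 are near-identical copies that can share reads. The list summed to 8490 and 8024 FPKM in the controls and to 9489 and 8926 FPKM in the knockdowns. The myeloid list summed to 70.8 and 68.7 FPKM in NC and to 99.5 and 96.9 FPKM in CEBPG3. Most of that difference was CD68, a lysosomal protein of macrophages, which rose (log2 fold change 1.18, limma adjusted p = 0.000638), while LYZ fell (-0.30, limma adjusted p = 0.0289) and the other 3 expressed genes were not called. Of 4 lymphoid markers with a value, 3 were under 1 FPKM in every library and CD3D, a T cell gene, rose from 32.3 and 33.3 FPKM to 67.0 and 56.3 FPKM (limma adjusted p = 0.0018). AZU1 and PRTN3, which mark promyelocytes, were thus near 0 beside other myeloid genes that were not, while globin transcripts of red cell precursors were abundant. These levels go against the label NB4, and the libraries are called here by their label only. The part of these marker levels in the results below was not tested.

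All 40 members passed the filter of a mean of at least 1 FPKM, and 34 were at 10 FPKM or more in every library. Upon CEBPG knockdown 10 members fell and none rose. Those that fell included the 3 scaffold proteins, the cytosolic enzymes LARS1, QARS1 and FARSB, and the mitochondrial enzymes EARS2, LARS2 and NARS2. The called changes were modest: log2 fold changes lay between -0.44 and -0.25, which left 71.4% to 83.7% of the control mean. A call is an adjusted p under 0.05 in limma, fitted on log2(FPKM + 1) over all 10968 tested genes, so a fold change understates the change of low genes. The 10 called members are 25.0% of 40, where 20.9% of all tested genes were called in either direction, 9.99% as lower and 10.9% as higher. At an unadjusted p under 0.05 (limma), 16 members were lower, where 17.4% of tested genes were, and 2 members were higher, HARS2 and AARS1, where 19.6% of tested genes were. No member passed a fold of 2 on the log2(FPKM + 1) scale at an unadjusted p under 0.05 (limma), which 0.602% of tested genes passed. The study also set a fold of 2, but with DESeq2, and does not say whether its p-values were adjusted. DESeq2 was not run here, so this share cannot be set beside the gene count of the study.

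The median log2 fold change of the members was -0.079, against 0.015 for all tested genes. For 21 members both knockdown values were under both control values, where 30.5% of tested genes showed this, and for 8 members they were over them, where 34.3% did. For the other 11 members the groups overlapped. The summed level of the members was 2174 and 2070 FPKM in the controls against 2053 and 2039 FPKM after knockdown, 96.4% of the control level. In bulk RNA fewer cells with a transcript and less transcript per cell cannot be told apart.

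**Figure D1:**
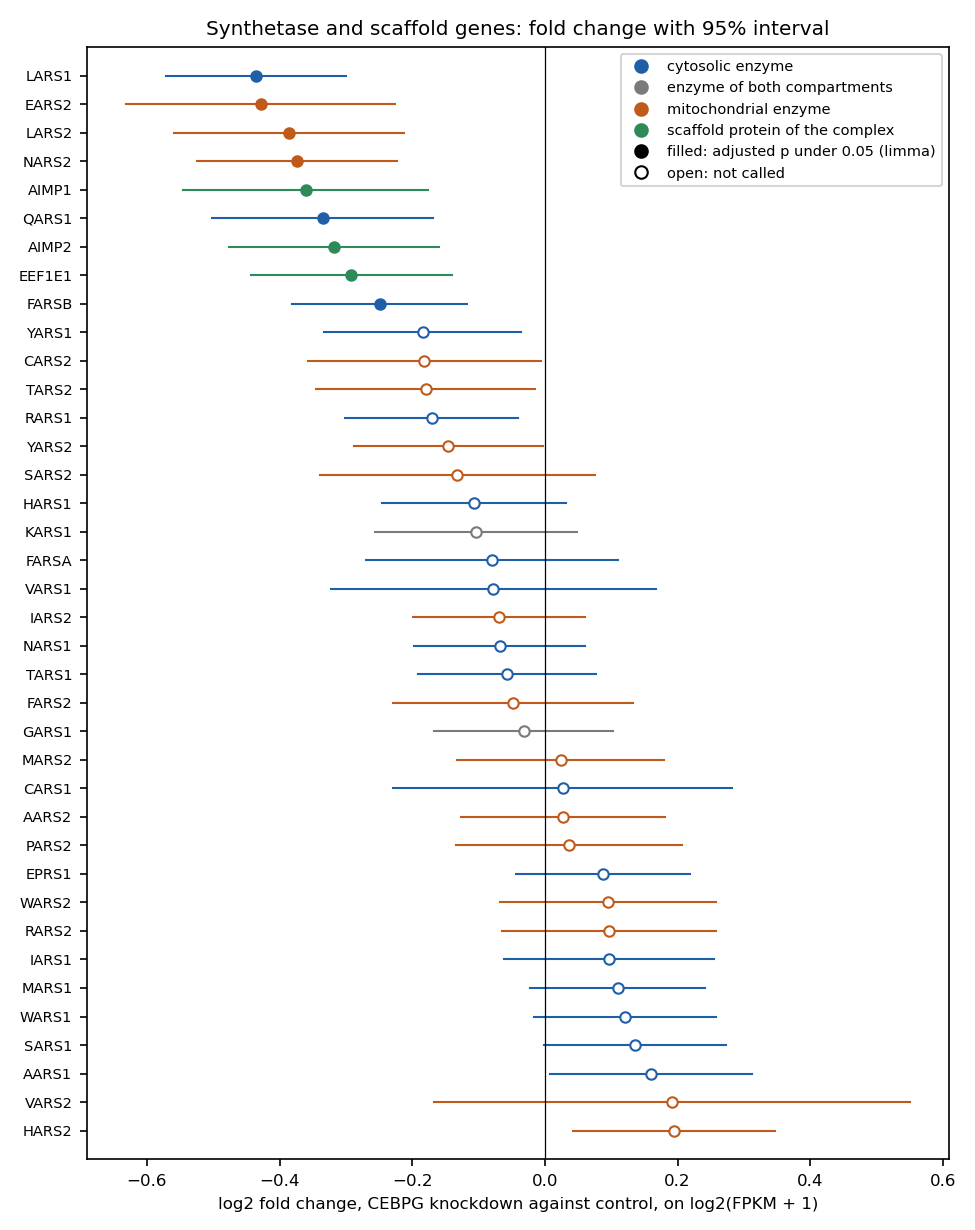
Log2 fold change of 38 of the 40 members (CEBPG knockdown against control, on the log2(FPKM + 1) scale, x axis), with points for the estimate and lines for its 95% interval from limma. Filled points, 9 of the 10 members with an adjusted p under 0.05, all lie between -0.44 and -0.25, and no member to the right of 0 is filled.

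All 3 scaffold proteins of the multi-synthetase complex fell, where 9.99% of all tested genes did. Without the filter on low values none of the 3 was called (limma adjusted p = 0.0757 for AIMP1, 0.0651 for AIMP2 and 0.0679 for EEF1E1). AIMP1, which also has an extracellular fragment with cytokine activity, was at 17.8 and 19.0 FPKM in the controls and at 13.3 and 15.0 FPKM in the knockdowns (log2 fold change -0.36, SE 0.078, limma adjusted p = 0.0212). AIMP2, the core scaffold, was at 52.2 and 47.3 FPKM in NC and at 39.2 and 40.0 FPKM in CEBPG3 (log2 fold change -0.32, SE 0.067, limma adjusted p = 0.0196). EEF1E1, also known as AIMP3, was at 88.9 and 84.9 FPKM in the controls against 68.1 and 73.6 FPKM after knockdown (log2 fold change -0.29, SE 0.064, limma adjusted p = 0.0223). For each of the 3 genes both knockdown libraries were low and the groups did not overlap, as for 30.5% of all tested genes. Their summed level was 159 and 151 FPKM in the controls and 121 and 129 FPKM in the knockdowns, 80.4% of control. AIMP1 lies at chr4:106315544-106349456 (plus strand), AIMP2 at chr7:6009255-6023834 (plus strand) and EEF1E1 at chr6:8073360-8102559 (minus strand), on GRCh38 (hg38) in GENCODE 44, so the 3 genes lie on different chromosomes.

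Of the 8 enzymes of the complex, 3 fell (37.5%, beside 9.99% of all tested genes) and the other 5 were not called. LARS1, the leucyl enzyme, which also acts as a leucine sensor for mTORC1, had the lowest log2 fold change of all 40 members with 1 FPKM added, while with 0.1 FPKM added EARS2 was lower (-0.48 against -0.45). Without control 2 EARS2 (-0.51) and LARS2 (-0.45) were lower than LARS1 (-0.44), and without knockdown 2 EARS2 was (-0.48 against -0.47). LARS1 was at 50.8 and 50.7 FPKM in the controls and at 36.4 and 38.1 FPKM in the knockdowns. Its knockdown mean, 37.2 FPKM, was 73.4% of the control mean of 50.7 ± 0.053 FPKM (SD, n = 2), with a log2 fold change of -0.44 (SE 0.057, limma adjusted p = 0.00446). The difference was larger than the spread within either group. LARS1 lies at chr5:146110566-146182696 on the minus strand. QARS1, the glutaminyl enzyme at chr3:49095932-49105130 (minus strand), was at 51.7 and 46.1 FPKM in NC and at 38.8 and 38.1 FPKM in CEBPG3 (log2 fold change -0.34, SE 0.070, limma adjusted p = 0.0196). The knockdown libraries of QARS1 were low and lay apart from the control libraries.

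The other enzymes of the complex went to either side of 0. RARS1, the arginyl enzyme, was at 47.8 and 48.2 FPKM in the controls and at 42.3 and 42.7 FPKM in the knockdowns, a log2 fold change of -0.17 (limma adjusted p = 0.0696). EPRS1, the bifunctional glutamyl and prolyl enzyme, had a log2 fold change of 0.088 with a 95% interval of -0.043 to 0.22. IARS1, the isoleucyl enzyme, had 0.097 (-0.061 to 0.26), and MARS1, the methionyl enzyme, had 0.11 (-0.022 to 0.24). None of these 4 was called. The intervals of EPRS1, IARS1 and MARS1 hold 0, and that of RARS1 (-0.30 to -0.040) does not. RARS1 was called as lower with median-ratio scaling (limma adjusted p = 0.0349) and with the columns scaled to one sum (0.0431). Over its 11 members the complex had 6 called lower (54.5%, beside 9.99% of all tested genes), a median log2 fold change of -0.29 and a summed level of 837 and 808 FPKM in NC and of 756 and 769 FPKM in CEBPG3.

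KARS1, the lysyl enzyme of the complex that also serves mitochondria, had the highest mean level of all members. It was at 164 and 154 FPKM in the controls against 152 and 143 FPKM after knockdown, a log2 fold change of -0.10 (95% interval -0.26 to 0.048, limma adjusted p = 0.283). Its transcript for the cytosolic protein, NM_005548, had a log2 fold change of -0.14, and its transcript for the mitochondrial protein, NM_001130089, had -0.037. Neither transcript was called, and the difference between them was not tested. GARS1, the glycyl enzyme of both compartments, was at 126 and 119 FPKM in the controls and at 120 and 119 FPKM in the knockdowns, a log2 fold change of -0.032 (95% interval -0.17 to 0.10, limma adjusted p = 0.722). The libraries of GARS1 overlapped.

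**Figure D2:**
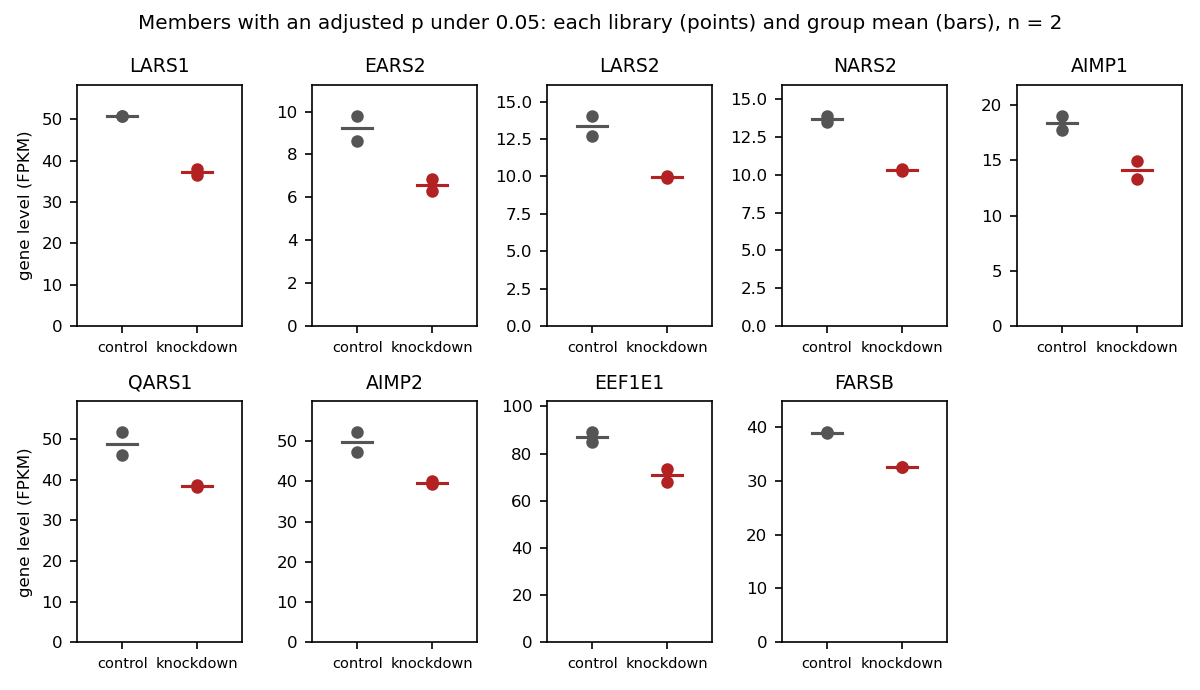
Gene level in FPKM (y axis, from 0) of 9 of the 10 members with an adjusted p under 0.05, in the 2 control (grey) and 2 knockdown (red) libraries, with bars for the group means. In every panel both knockdown points lie below both control points, from LARS1 (50.7 and 50.8 against 36.4 and 38.1 FPKM) to FARSB (38.8 and 38.9 against 32.5 and 32.6 FPKM). The members shown were chosen by their call, and 30.5% of all tested genes have such an order of points.

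Outside the complex 1 of 12 cytosolic or shared enzymes fell, 8.33% of them and so near the 9.99% of all tested genes, and the difference from the complex was not tested. FARSB, the beta subunit of the phenylalanyl enzyme at chr2:222566899-222656092 (minus strand), was at 38.8 and 38.9 FPKM in NC and at 32.5 and 32.6 FPKM in CEBPG3. Its log2 fold change was -0.25 (SE 0.055, limma adjusted p = 0.0236), the smallest of the called ones with all libraries. The coding transcript NM_005687, 65.4% of the signal of FARSB, had -0.17 (limma adjusted p = 0.241 over all transcripts). The non-coding entry NR_130154, 34.6% of the signal, had -0.37 (limma adjusted p = 0.134), so the gene sum overstates the change of the coding transcript. FARSA, the alpha subunit of the same enzyme, was at 150 and 132 FPKM in the controls against 139 and 128 FPKM after knockdown, so that its groups overlapped (log2 fold change -0.079, limma adjusted p = 0.509). The highest value of this group belonged to AARS1, the alanyl enzyme, at 143 and 132 FPKM in the controls and at 157 and 150 FPKM in the knockdowns (log2 fold change 0.16, SE 0.064, limma adjusted p = 0.12). The knockdown libraries of AARS1 were high and did not overlap the control libraries, but the gene was not called. With the columns scaled to one sum AARS1 passed the threshold (log2 fold change 0.14, limma adjusted p = 0.0403). YARS1, the tyrosyl enzyme, had a log2 fold change of -0.18 (limma adjusted p = 0.0789), and it was called as lower with one sum (limma adjusted p = 0.0154) and with median-ratio scaling (0.0273). The median of the 12 enzymes was -0.063, and their summed level was 99.9% of control.

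CARS1, the cysteinyl enzyme, was listed at only 1.85 to 2.16 FPKM. Its transcript NM_001751 had no value in any library, so the level of CARS1 is incomplete and its place among the levels is not known. TARS3, the newer name of TARSL2, is a threonyl enzyme that the rule named by its older symbol and so did not take. It was at 2.13 and 2.55 FPKM in NC and at 2.25 and 2.03 FPKM in CEBPG3.

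Of the 17 mitochondrial enzymes 3 fell and none rose, 17.6% of them beside 9.99% of all tested genes called as lower and 20.9% called in either direction. EARS2, the glutamyl enzyme at chr16:23520754-23557731 (minus strand), was at 9.79 and 8.64 FPKM in the controls against 6.30 and 6.86 FPKM after knockdown (log2 fold change -0.43, SE 0.085, limma adjusted p = 0.0167). LARS2, the leucyl enzyme at chr3:45388561-45554726 (plus strand), was at 14.0 and 12.7 FPKM in the controls and at 9.92 and 10.04 FPKM in the knockdowns (log2 fold change -0.39, SE 0.073, limma adjusted p = 0.0142). NARS2, the asparaginyl enzyme at chr11:78435620-78575194 (minus strand), was at 13.5 and 13.9 FPKM in NC and at 10.3 and 10.4 FPKM in CEBPG3 (log2 fold change -0.37, SE 0.063, limma adjusted p = 0.0101). In all 3 genes the knockdown libraries were low and lay apart from the control libraries, as for 30.5% of all tested genes. At an unadjusted p under 0.05 (limma), 7 mitochondrial enzymes were lower and 1 was higher, beside 17.4% and 19.6% of all tested genes.

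The highest mitochondrial values were those of HARS2 and VARS2, in that order with 1 FPKM added and in the reverse order with 0.1 FPKM added (0.20 and 0.23). HARS2, the histidyl enzyme, was at 17.3 and 16.2 FPKM in the controls against 19.6 and 19.1 FPKM after knockdown (log2 fold change 0.19, SE 0.064, limma adjusted p = 0.0738). HARS2 (chr5:140691430-140699305, plus strand) and the cytosolic HARS1 (chr5:140673035-140691537, minus strand) start head to head and overlap at their ends, and the sources used here do not state counting by strand, so reads in the overlap cannot be told apart. HARS1 had a log2 fold change of -0.11 (limma adjusted p = 0.23). VARS2, the valyl enzyme, was at 3.66 and 5.48 FPKM in the controls and at 5.50 and 5.06 FPKM in the knockdowns, and control 1 alone was low. Its log2 fold change of 0.19 (limma adjusted p = 0.398) became -0.046 without control 1 and 0.43 without control 2. The median of the mitochondrial enzymes was -0.069, and their summed level was 331 and 316 FPKM in NC and 309 and 310 FPKM in CEBPG3.

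For 17 amino acids a cytosolic gene could be set beside a mitochondrial one, in 18 pairs because FARSA and FARSB share FARS2. Leucine was the amino acid for which both genes fell. In 2 pairs the cytosolic gene alone was called (among them FARSB with FARS2), in 2 pairs the mitochondrial gene alone (EARS2 with EPRS1, NARS2 with NARS1), and in 13 pairs neither. Of all tested genes 9.99% were called as lower. Log2 fold changes were both negative in 7 pairs, both positive in 4 and of opposite sign in 7. The widest gap was that of glutamate, where EPRS1 had 0.088 and EARS2 -0.43, although EPRS1 serves 2 amino acids and its other partner PARS2 had 0.036. Without control 2 that of valine was wider, with VARS1 at -0.23 and VARS2 at 0.43 against EPRS1 at 0.089 and EARS2 at -0.51. The gap between partners was not tested. Per kilobase the cytosolic gene was more abundant in 17 of 18 pairs, by a median ratio of control means of 4.10, and the exception was the incomplete CARS1.

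**Figure D3:**
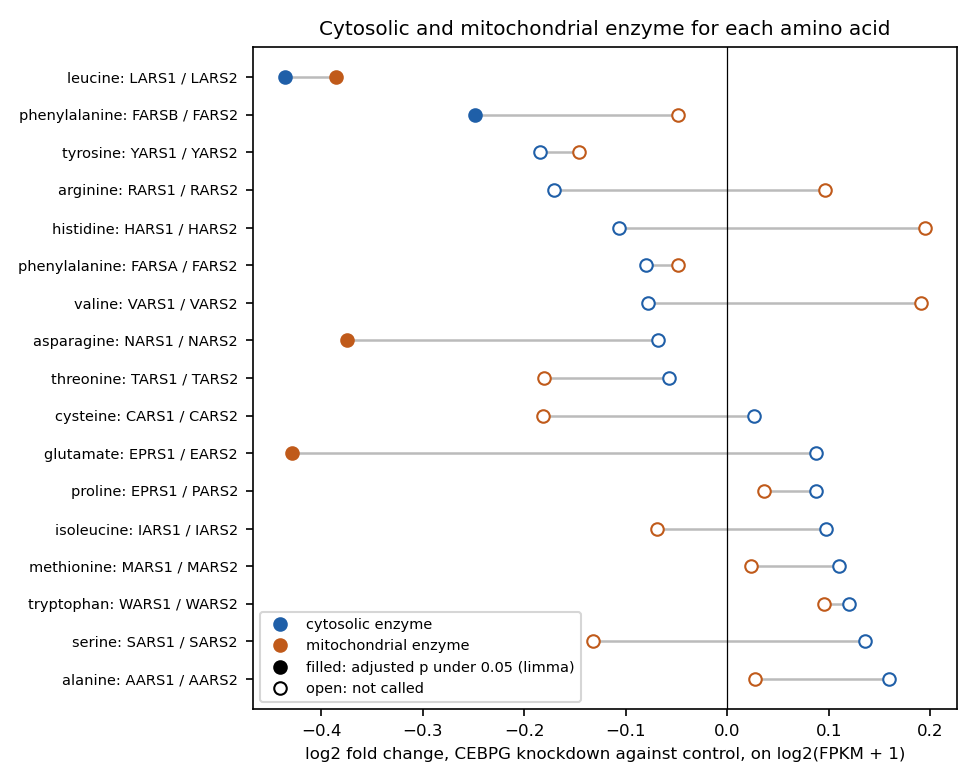
Log2 fold change (x axis, on the log2(FPKM + 1) scale) of the cytosolic (blue) and mitochondrial (orange) enzyme in 17 of the 18 pairs, joined by a line, with filled points for an adjusted p under 0.05 in limma. Leucine, with LARS1 at -0.44 and LARS2 at -0.39, is the pair with both points filled, and 7 of the 17 lines cross 0.

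Cytosolic and shared enzymes were then split by what is known of ATF4. Of 12 enzymes listed from general knowledge as targets of ATF4, LARS1 fell (8.33%, near the 9.99% of all tested genes) and the other 11 were not called, with a median log2 fold change of 0.057. Of the 8 other enzymes 3 fell (37.5%, QARS1 and FARSB among them), with a median of -0.14 and all 8 values below 0. The summed level was 1109 and 1061 FPKM in the controls against 1113 and 1109 FPKM after knockdown for the ATF4 targets, 102% of control. For the other enzymes it was 576 and 541 FPKM against 511 and 492 FPKM, 89.8% of control. LARS1 was also the member that stayed called without knockdown 1. The difference between these lists was not tested.

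The promoters of the members were searched for the core of the C/EBP-ATF response element, TGATGNAA on either strand, in windows from 250 bases before to 50 bases after each RefSeq start (GRCh38.p14). Windows were given for 33 of the 40 members, and LARS1, AARS2, VARS1, VARS2 and YARS1 were among those without one. A match was found in 8 of the 33 members (24.2%), while 4.46% of 27305 genes and 3.62% of 35116 windows held one. Of the 10 known ATF4 targets with a window 7 held a match, and of the 23 other members 1 did. None of the 8 called members with a window held a match, where 4.46% of all genes held one. None of the 8 members with a match was called, where 20.9% of all tested genes were. Their log2 fold changes lay between -0.15 and 0.16. The 8 matches are shown because they mark the members with these letters, each with 10 bases on either side, 5′ to 3′ in the direction of the gene and with the match in capitals.
AARS1 at chr16:70289676-70289703, minus strand: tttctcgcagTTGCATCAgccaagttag
CARS1 at chr11:3057408-3057435, minus strand: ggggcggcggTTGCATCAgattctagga
GARS1 at chr7:30594835-30594862, plus strand: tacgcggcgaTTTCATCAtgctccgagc
IARS1 at chr9:92293693-92293720, minus strand: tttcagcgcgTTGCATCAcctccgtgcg
MARS1 at chr12:57488054-57488081, plus strand: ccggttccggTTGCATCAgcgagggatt
NARS1 at chr18:57621805-57621832, minus strand: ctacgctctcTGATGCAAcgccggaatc
TARS1 at chr5:33440957-33440984, plus strand: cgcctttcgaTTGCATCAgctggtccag
YARS2 at chr12:32756077-32756104, minus strand: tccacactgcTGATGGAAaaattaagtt

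In 6 of these (AARS1, CARS1, IARS1, MARS1, NARS1 and TARS1) the match was TGATGCAA on one of the strands, a form held by 1.08% of genes. In CARS1, IARS1, MARS1, NARS1 and TARS1 it lay within 22 bases of the RefSeq start. A match is a description of letters and not a bound site, and the window leaves out elements in introns.

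The CCAAT pentamer, from which the C/EBP family takes its name although the box is known as a site of NF-Y, was searched as well. It was chosen after the values were seen. It was found in 19 of the 33 members (57.6%) and in 39.7% of all genes, and among the members in 5 of 8 called and in 14 of 25 not called.

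Other genes of tRNA charging and use were read from lists written from general knowledge. Of 5 genes of editing and of the selenocysteine route (median log2 fold change -0.16) 2 fell, where 9.99% of all tested genes did. These were DTD1, which removes D-amino acids from tRNA, and its paralog DTD2, which removes alanine mischarged on threonine tRNA. DTD2 was at 7.10 and 8.13 FPKM in the controls and at 3.84 and 3.72 FPKM in the knockdowns, a log2 fold change of -0.85 (SE 0.087, limma adjusted p = 0.00209). DTD1 was at 23.7 and 23.2 FPKM in NC and at 15.1 and 16.6 FPKM in CEBPG3, a log2 fold change of -0.54 (SE 0.069, limma adjusted p = 0.00404). Both values were lower than that of any synthetase. Of 4 aids of mitochondrial charging (median -0.15) QRSL1, a subunit of the amidotransferase that makes glutaminyl-tRNA in mitochondria, fell (log2 fold change -0.24, limma adjusted p = 0.047), 25.0% of a list of few genes.

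Of 18 genes of tRNA maturation and export 17 were tested, of which 5 fell and 1 rose, 35.3% of them beside 20.9% of all tested genes, with a median log2 fold change of 0.0024. TSEN15, a subunit of the tRNA splicing endonuclease, had -0.27 (limma adjusted p = 0.0217). POP1, a protein of RNase P, had -0.34 (limma adjusted p = 0.0343), whereas POP5, another protein of the same enzyme, rose from 32.9 and 32.3 FPKM to 46.8 and 44.3 FPKM, a log2 fold change of 0.47 (limma adjusted p = 0.00401). ELAC2, which cuts the 3′ trailer of tRNA, had -0.30 (limma adjusted p = 0.0258), and SSB, the La protein, had -0.23 (0.0269). None of the 9 elongation factors was called in limma, none had an unadjusted p under 0.05, and their log2 fold changes lay between -0.17 and 0.14 with a median of 0.019.

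Of 24 other known targets of ATF4 23 were tested, of which 4 fell and 2 rose, 26.1% of them beside 20.9% of all tested genes, with a median log2 fold change of 0.054. ATF5, a bZIP factor, fell from 39.2 and 36.6 FPKM to 15.9 and 17.5 FPKM (log2 fold change -1.14, limma adjusted p = 0.000638). PSAT1 of serine synthesis had -0.41 (limma adjusted p = 0.00539), the pseudokinase TRIB3 had -0.24 (0.0466) and ASNS, asparagine synthetase, had -0.22 (0.042). PHGDH, the first enzyme of serine synthesis, rose with 0.38 (limma adjusted p = 0.0173), and DDIT4, an inhibitor of mTORC1, with 0.41 (0.00941).

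**Figure D4:**
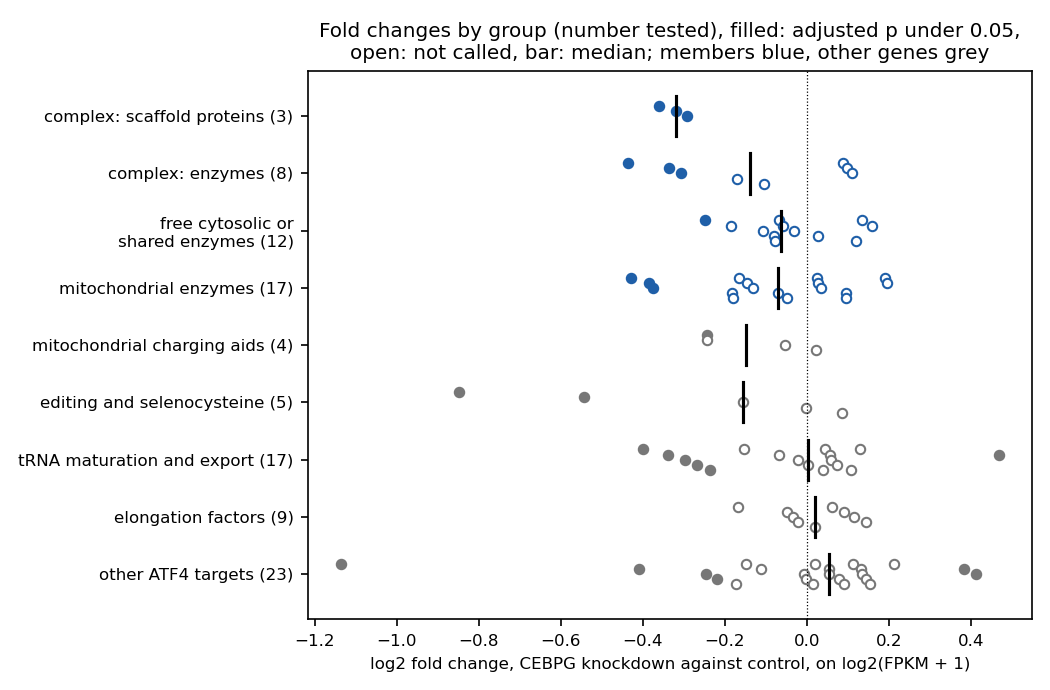
Log2 fold changes (x axis, on the log2(FPKM + 1) scale) of the synthetase and scaffold genes by place (blue) and of the other lists (grey), with filled points for an adjusted p under 0.05 in limma and a bar at the median of each list. All 3 scaffold proteins are filled, none of the 9 elongation factors is, and the lowest point is ATF5 at -1.14.

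The number of called members depended on single libraries. It was 8 without control 1, 9 without control 2 (8 lower, and VARS2 higher), 1 without knockdown 1 (LARS1) and 3 without knockdown 2 (LARS1, EARS2 and AIMP1), and over all tested genes the calls went from 2288 to 825 and 838 without knockdown 1 and knockdown 2. When transcripts were tested in place of genes, 25 of 15795 (0.158%) were called and none of the 56 tested transcripts of the members was (lowest limma adjusted p = 0.0896, with 18 at an unadjusted p under 0.05), while the leading transcript of each of the 10 called members kept a negative value.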

How the data were processed

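RNA was measured by RNA-seq in 2 control and 2 CEBPG knockdown libraries. Per the labels, an Illumina TruSeq RNA kit was used for the libraries, and the submitters' processing notes name HISAT2 2.0.5 and hg38. The authors deposited FPKM values for 29265 RefSeq transcripts, and the quantifier and annotation release are not given in the sources used here. FPKM carries no counts. Among 2235 genes with 1 transcript and under 0.3 FPKM in both control libraries, the most common ratio of these libraries accounted for 1.30%, and no whole reads were recovered.

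Entries without a value (183) or a symbol (164) were left out, and 28918 transcripts were summed to 16504 gene symbols. The 10968 genes whose mean reached 1 FPKM were compared as log2(FPKM + 1) with limma 3.58.1 (R 4.3.3), using a mean trend, 2-sided tests, no block and Benjamini-Hochberg adjustment over all tested genes. The fit was tested on simulated data. Members with an adjusted p under 0.05, the extremes of each compartment, KARS1 and GARS1 were named with full values. The members and lists were chosen with earlier results of these data known. Alternatives were a pseudocount of 0.1, no filter or a filter at 5 FPKM, 2 scalings, a replicate block, no trend, transcripts, and each library left out. Gene positions come from GENCODE 44 and promoter sequences from RefSeq (GRCh38.p14). Values of some genes are not reported here, in the text or in the plots, while the counts, medians and sums of the lists include them.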

Additional observations from a re-analysis of the deposited data

How the results depend on the processing

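The number of called members (10) was 9 to 15 under both scalings, a pseudocount of 0.1, a filter at 5 FPKM, no mean trend and the replicate block, and in each of these at least 9 of the 10 were among the calls. Without a filter, all 16504 genes entered the test and 4 members (3 cytosolic, 1 mitochondrial) of 882 genes were called. With no filter and a pseudocount of 0.1, chosen after seeing the data, 5 members (3 cytosolic) of 1040 genes were. Leaving out each library gave 1 to 9 members, 1 to 6 cytosolic against 7, 0 to 4 mitochondrial against 3 (with 3 at an unadjusted p under 0.05 in limma where none was called) and 825 to 1925 genes against 2288. A group left with 1 library is assumed to vary like the other. The replicate block called 15 members (12 lower, with RARS1 and YARS1 added, and 3 higher, AARS1, HARS2 and SARS1), 11 cytosolic and 3440 genes with 1 residual degree of freedom. Deviations of same-numbered libraries correlated at 0.101, and the labels name nothing that the numbers share. No called member changed sign in any alternative run. Among members not called, leaving out 1 library turned the sign of AARS2 (-0.016 to 0.071), CARS1 (-0.046 to 0.099), FARS2 (-0.12 to 0.024), FARSA (-0.17 to 0.010), GARS1 (-0.068 to 0.0038), MARS2 (-0.0075 to 0.055), PARS2 (-0.0018 to 0.074), VARS1 (-0.23 to 0.070) and VARS2 (-0.046 to 0.43). The leading transcript turned that of CARS1 (-0.051), TARS1 (0.051), TARS2 (0.0029) and VARS2 (-0.00054). Apart from construction (fewer libraries, more genes tested), the cause was not tested. With FPKM alone, depth sets an unknown limit on low genes such as VARS2.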

Other observations

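Minor transcripts of several members moved more than the gene sums. They were chosen after their values were seen, and none was called in limma over all transcripts. TARS2 NM_001271895, 14.9% of the signal of the mitochondrial threonyl enzyme, was at 3.43 and 3.03 FPKM in the controls against 1.44 and 1.14 FPKM after knockdown (log2 fold change -0.89, limma adjusted p = 0.108), while the leading transcript NM_025150 had 0.0029. The non-coding SARS1 entry NR_034072 was at 11.9 and 10.3 FPKM in the controls and at 16.3 and 16.0 FPKM in the knockdowns (log2 fold change 0.50, limma adjusted p = 0.114), while the coding transcript NM_006513 had 0.083. TARS1 NR_047678 and NM_001258437, 3.45% and 2.26% of the signal of that gene, had log2 fold changes of -1.21 and -1.07 (limma adjusted p = 0.222 and 0.188). NR_047678 was at 7.03 and 3.48 FPKM in NC and at 2.24 and 1.07 FPKM in CEBPG3, so that the control libraries differed by more than control 2 and knockdown 1 did. An FPKM value of a minor transcript depends on how reads were divided among the transcripts of a gene.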
